A study of Mus musculus with 6 samples.

Results

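The alpha and mu glutathione S-transferases (GSTs) of mouse liver were followed across 6 RNA sequencing libraries. The 10 genes, Gsta1 to Gsta4 of the alpha class and Gstm1 to Gstm6 of the mu class, were taken by symbol, out of 18253 gene symbols listed in at least 1 library. The livers were from C57BL/6 mice, for which the labels give postnatal day 21. For 3 libraries the mice had been given alpha-naphthylisothiocyanate (ANIT) together with celastrol, a plant triterpenoid, and for the other 3 they had been given ANIT without celastrol. ANIT damages the bile duct lining and serves to produce cholestasis in rodents. The labels give 5 days of treatment and no dose, and no library came from mice without ANIT, so both groups carry the same injury model and neither is normal liver. Whether each library is a separate animal is not stated in the labels, so the spread behind the p-values may be technical.

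Cytosolic GSTs are dimeric enzymes that join the tripeptide glutathione to electrophilic compounds, among them lipid peroxidation products, drug metabolites and carcinogens, which the cell then exports as conjugates. In mouse hepatocytes the alpha, mu and pi classes make up most of the soluble GST protein. Many of their genes are induced by the transcription factor Nrf2 through antioxidant response elements and by xenobiotic receptors such as PXR.

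The genes lie in tandem clusters, and some are nearly identical. Within the mu cluster, which spans 149.1 kb on chromosome 3 of mm10, the order by position is Gstm5, Gstm7, Gstm6, Gstm3, Gstm2, Gstm1 and Gstm4. Gstm7, which is not one of the 10 genes, is described below as their neighbour. The alpha cluster on chromosome 9 spans 173.0 kb and holds Gsta4, Gsta1, the gene models Gm3776 and Gm10639, and Gsta2 in that order, and Gsta3 lies alone on chromosome 1. The coding sequences of Gsta1 and Gm3776 are identical at 667 of 669 bases (99.7%), and those of Gsta1 and Gsta2 are 97.6% identical over the alignment. Bases 575 to 664 of the Gsta1 coding sequence (mm10, GENCODE release M21), with the aligned bases of its neighbours, are shown to make plain how little separates these genes. Capitals mark the 6 positions of this stretch at which the 3 genes are not all alike, of 18 in the whole coding sequence. Gsta1 is at chr9:78230656-78242684 (plus strand), Gm3776 at chr9:78257129-78269166 (plus strand) and Gsta2 at chr9:78331018-78355788 (minus strand).
Gsta1 coding: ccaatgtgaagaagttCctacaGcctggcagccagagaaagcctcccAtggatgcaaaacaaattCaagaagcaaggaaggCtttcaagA
Gm3776 coding: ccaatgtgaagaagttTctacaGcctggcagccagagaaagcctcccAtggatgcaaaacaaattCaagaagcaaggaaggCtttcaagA
Gsta2 coding: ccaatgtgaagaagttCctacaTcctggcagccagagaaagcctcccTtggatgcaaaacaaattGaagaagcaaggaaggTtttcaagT

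Reads that fall between such positions cannot be given to 1 gene. Of all distinct 50-base windows of the annotated transcripts, 90.5% of those of Gsta1 and 49.8% of those of Gsta2 also occurred in a transcript of another gene. Among the mu genes the shares were 28.8% for Gstm3, 18.9% for Gstm1, 5.97% for Gstm6 and 5.66% for Gstm2. Gsta4, Gstm4 and Gstm5 shared 0 of their windows, and Gsta3 shared 0.273%. With 100-base windows the shares were 80.6% for Gsta1, 28.4% for Gsta2, 13.8% for Gstm3 and 5.86% for Gstm1. The values of Gsta1 and Gsta2, and to a lesser degree Gstm3 and Gstm1, are therefore uncertain as to which copy the reads came from, whereas Gsta4, Gstm4 and Gstm5 are free of windows shared in this way.

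The stretches upstream of 4 genes are given because they hold antioxidant motif matches. They were picked with the results known, from genes with large and with small fold changes between the groups. Gstm4, which also holds a match, is not shown, and the difference of Gsta3 did not pass the test described below. Sequences are from RefSeq on GRCm38.p6, 5′ to 3′ on the gene's own strand, beginning 250 bases before the RefSeq start site. Each ends before the start of the gene in GENCODE M21. Capitals mark matches of TGANNNNGC, the looser core of the antioxidant response element, on either strand, which include every match of the stricter TGACNNNGC. Positions are chr3:107969284-107969424 (minus strand) for Gstm3, chr9:78230419-78230655 (plus) for Gsta1, chr1:21240335-21240584 (plus) for Gsta3 and chr3:107895604-107895820 (plus) for Gstm5.
Gstm3 upstream: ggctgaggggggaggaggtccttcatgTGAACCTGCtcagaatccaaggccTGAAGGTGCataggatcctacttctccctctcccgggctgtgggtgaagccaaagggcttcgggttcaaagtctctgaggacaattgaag
Gsta1 upstream: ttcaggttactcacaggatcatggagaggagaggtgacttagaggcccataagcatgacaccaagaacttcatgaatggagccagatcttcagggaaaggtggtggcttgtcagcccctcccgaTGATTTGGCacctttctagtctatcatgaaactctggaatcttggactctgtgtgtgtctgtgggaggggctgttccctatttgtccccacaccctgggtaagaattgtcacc
Gsta3 upstream: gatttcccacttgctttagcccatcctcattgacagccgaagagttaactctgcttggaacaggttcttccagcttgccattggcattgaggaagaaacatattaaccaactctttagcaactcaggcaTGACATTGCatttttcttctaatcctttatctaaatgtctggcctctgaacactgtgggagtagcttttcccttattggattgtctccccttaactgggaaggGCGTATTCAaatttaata
Gstm5 upstream: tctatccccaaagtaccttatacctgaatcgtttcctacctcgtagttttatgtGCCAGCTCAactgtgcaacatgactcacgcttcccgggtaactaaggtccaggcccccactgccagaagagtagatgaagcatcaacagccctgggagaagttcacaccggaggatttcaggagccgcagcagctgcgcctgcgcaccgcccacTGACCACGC

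RefSeq upstream windows of 250 bases were found for 9 of the 10 genes, 13 windows in all. No entry was found for Gsta4. The stricter motif TGACNNNGC occurred in 2 of the 9 genes, Gsta3 and Gstm5, and in 10.2% of 32851 mouse promoter windows of the same length. TGANNNNGC occurred in 5 of the 9 genes (Gsta1, Gsta3, Gstm3, Gstm4 and Gstm5) and in 35.2% of all promoter windows. The xenobiotic response element core GCGTG occurred in 3 genes (Gsta2, Gstm1 and Gstm5) and in 28.2% of all windows, both strands being searched for each motif. These counts are per gene, and some genes have several windows, whereas the background shares are per window. Counts and shares are therefore not in the same unit, and whether the genes differ from the background was not tested. A match is a run of letters and not a measured binding site, and elements farther upstream were not searched.

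The deposited unit, FPKM, is fragments per kilobase of gene, scaled to library size, and it allows levels of different genes to be compared per length. Depth was estimated from the spacing of low values at 19400000 to 19780000 reads in the celastrol libraries and 18940000 to 19840000 reads in the ANIT libraries. These estimates are rough, the fit scoring 0.212 to 0.288 over the libraries, against 0.108 to 0.151 for the next best total. They also rest on GENCODE M21 lengths, which may not be those behind the FPKM values. Celastrol replicate 2 stood apart from the other libraries of its group, with 20.7% of its FPKM sum in its 10 most abundant genes, against 33.2% in celastrol replicate 1 and 31.5% in celastrol replicate 3, and 20.3 to 21.9% in the ANIT libraries. The defining hepatocyte marker Hnf4a was abundant in every library, at 191 to 219 FPKM in celastrol libraries and 177 to 204 FPKM in ANIT libraries. Alb, also abundant in every library, was lower with celastrol, and the list of 8 hepatocyte markers is described below. Unlisted symbols were counted as 0, which was needed for 1 of the 60 values of the 10 genes.

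Most of the genes in both classes were lower with celastrol, the exception being Gsta3. Of the 10 genes, 9 were lower and 0 were higher at a limma adjusted p under 0.05 on log2(FPKM + 1), against 20.6% of 10593 tested symbols called lower and 4.41% called higher. Those shares are 2185 lower and 467 higher symbols, and the split was 1163 to 800 under median-ratio scaling and 952 to 873 after quantile normalization, where 8 of the 10 genes were lower and 0 higher. All 3 celastrol libraries lay below all 3 ANIT libraries for the same 9 genes, which was so for 36.6% of tested symbols. The median log2 fold change, celastrol over ANIT, was -2.81 over the 10 genes and -0.17 over all tested symbols. A log2 fold change of -1 or lower was found for 8 of the 10 genes and for 4.26% of tested symbols. Gsta1 and Gsta2 reached the filter of 1 FPKM in at least 3 libraries only through the ANIT group, and the fit without that filter called the same 9 genes. In bulk liver, fewer cells of a type and less RNA per cell cannot be told apart.

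**Figure D1:**
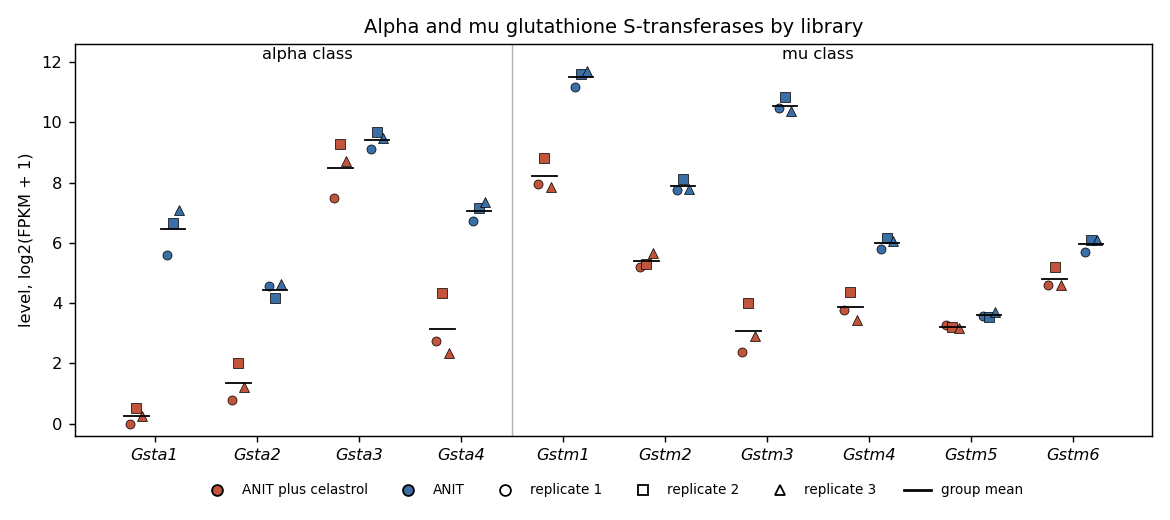
Level of each gene as log2(FPKM + 1) in each library (points; shape gives the replicate), with ANIT plus celastrol left of ANIT and black lines for group means. The celastrol points lie below the ANIT points for 9 genes, with the widest gap for Gstm3, and overlap them for Gsta3.

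Gsta1, the first alpha gene, encodes an enzyme that conjugates electrophiles and reduces organic hydroperoxides. Celastrol replicate 1 did not list it, celastrol replicate 2 had 0.43 FPKM and celastrol replicate 3 had 0.19 FPKM, against 47.42, 101.29 and 134.15 FPKM in ANIT replicates 1, 2 and 3. The gene was thus close to undetected in every celastrol library and among the upper 1305 symbols of every ANIT library. Its log2 fold change was -6.20 (limma, SE 0.38, adjusted p = 0.00051), the ANIT mean being 456 times the celastrol mean. At the estimated depth, and with the annotated exon length of 956 bases, the celastrol values stand for about 8.0 and 3.6 reads, so the ratio itself is imprecise while the gap between groups is wide.

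Gsta2, the close relative of Gsta1, measured 0.73, 3.07 and 1.33 FPKM in celastrol libraries, against 22.51, 17.02 and 23.82 FPKM in ANIT libraries. The highest celastrol value lay well below the lowest ANIT value. The log2 fold change was -3.11 (limma, SE 0.31, adjusted p = 0.0018), and 8.10% of the mean ANIT level remained. Because reads of the near copies cannot be divided with certainty, the copies were also looked at together. Gm3776, named here after its values were seen, was not listed in any celastrol library and measured 31.92, 51.7 and 80.49 FPKM in ANIT libraries, so it reached the filter only through the ANIT group, and its values are given as a description without a test. The sum of Gsta1, Gm3776 and Gsta2 was 0.73, 3.5 and 1.52 FPKM in celastrol libraries, against 101.85, 170.01 and 238.46 FPKM in ANIT libraries. This sum was low in each celastrol library and high in each ANIT library, however the counted reads were divided among the copies. How reads that match more than 1 copy were handled is not given, and any left out are not in the sum. Gm10639 was not listed in any celastrol library and reached at most 0.15 FPKM in an ANIT library.

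Gsta4 encodes the alpha enzyme with high activity toward hydroxynonenal, an aldehyde formed when membrane lipids are oxidised. Its level was 5.63, 19.18 and 4.04 FPKM in celastrol libraries, against 104.78, 140.28 and 162.54 FPKM in ANIT libraries. The groups did not overlap, though celastrol replicate 2 stood at more than 3 times either other library of its group. Celastrol averaged 9.62 ± 8.32 FPKM and ANIT 136 ± 29.1 FPKM (SD, n = 3 each), and the log2 fold change was -3.94 (limma, SE 0.53, adjusted p = 0.0057). As given above, Gsta4 shared no 50-base window with another gene.

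Gsta3, the most abundant alpha gene here in each library, encodes the mouse enzyme known for its high activity toward aflatoxin epoxide. It measured 180.85, 621.96 and 417.16 FPKM in celastrol libraries, against 550.32, 827.68 and 706.37 FPKM in ANIT libraries. Celastrol replicate 2 lay above ANIT replicate 1, so the groups overlapped. The log2 fold change of -0.92 did not pass (limma, SE 0.44, 95% interval -1.98 to 0.13, adjusted p = 0.17). The interval holds both no difference and a difference larger than that of Gstm6, which passed. Without celastrol replicate 2 the log2 fold change was -1.32 and it passed (limma adjusted p = 0.046). Without celastrol replicate 1 the log2 fold change was -0.43 (limma adjusted p = 0.32), and the adjusted p lay between 0.046 and 1 over the 14 alternatives.

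Gstm1, the first mu gene, encodes the main mu subunit of mouse liver. It was the most abundant of the 10 genes in the ANIT libraries and measured 249.16, 445.95 and 228.36 FPKM in celastrol libraries, against 2324.15, 3102.86 and 3347.05 FPKM in ANIT libraries. Ordered by level, it ranked 226, 149 and 233 among the symbols of the celastrol libraries and 35, 23 and 25 among those of the ANIT libraries. Its log2 fold change was -3.29 (limma, SE 0.28, adjusted p = 0.00065), with 10.5% of the mean ANIT level left.

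Gstm3, another mu subunit that is abundant in liver, measured 4.17, 15.03 and 6.46 FPKM in celastrol libraries, against 1410.9, 1827.52 and 1325.27 FPKM in ANIT libraries. On the log2(FPKM + 1) scale no tested symbol had a lower log2 fold change, but with a pseudocount of 0.1 Gsta1 lay lower, at -8.44 against -7.65 for Gstm3. The change with a pseudocount of 1 was -7.47 (limma, SE 0.40, adjusted p = 0.00024), and 0.562% of the mean ANIT level remained. In rank it stood at 6641, 3071 and 5139 in celastrol libraries and at 49, 40 and 56 in ANIT libraries. Its closest relative by coding sequence was Gstm1, at 89.5% identity.

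Gstm2 measured 36.19, 38.36 and 49.52 FPKM in celastrol libraries, against 215.14, 278.84 and 221.47 FPKM in ANIT libraries. It varied little within either group, and celastrol replicate 3, not replicate 2, was the highest of its group. The log2 fold change was -2.50 (limma, SE 0.17, adjusted p = 0.00024). For Gstm4, which encodes a further mu subunit and shared no 50-base window with other genes, levels were 12.81, 19.9 and 9.81 FPKM in celastrol libraries and 55, 70.43 and 66.12 FPKM in ANIT libraries. Its groups were far apart, at a log2 fold change of -2.14 (limma, SE 0.24, adjusted p = 0.0017).

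Smaller differences were found for Gstm6 and Gstm5. Gstm6 measured 23.53, 36.16 and 23.3 FPKM in celastrol libraries, against 51.1, 67.19 and 66.88 FPKM in ANIT libraries. The mean with celastrol was 44.8% of the mean with ANIT, and the log2 fold change was -1.15 (limma, SE 0.20, adjusted p = 0.0074). Tested against a fold of 1.5 in place of no change, Gstm6 did not pass (limma adjusted p = 0.27, with a range of 0.0018 to 0.27 over 14 alternatives).

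Gstm5, a mu gene known mainly from brain and testis, measured 8.79, 8.19 and 7.99 FPKM in celastrol libraries, against 10.84, 10.74 and 11.98 FPKM in ANIT libraries. The gap was narrow, but so was the spread, and the groups did not overlap. Its log2 fold change was -0.39 (limma, SE 0.092, adjusted p = 0.022). This call changed with the scaling, which also moved the median of all tested symbols from its value of -0.17. Under median-ratio scaling, at a median of -0.02, the log2 fold change of Gstm5 was -0.22 (limma adjusted p = 0.17), and after quantile normalization it was -0.15 (limma adjusted p = 0.32). The call was also lost without celastrol replicate 1, celastrol replicate 3 or any 1 ANIT library (limma adjusted p between 0.054 and 0.072). Over all 14 alternatives the adjusted p of Gstm5 lay between 0.0066 and 1.

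Arranged by log2 fold change, the 10 genes ran Gstm3, Gsta1, Gsta4, Gstm1, Gsta2, Gstm2, Gstm4, Gstm6, Gsta3 and Gstm5, the lowest first. This order depends on the pseudocount: at 0.1 FPKM Gsta1 (-8.44) came before Gstm3 (-7.65), and Gsta2 (-3.75) before Gstm1 (-3.30). The difference of each adjacent pair in this order on the log2(FPKM + 1) scale was compared between groups. The pairs came from the same fold changes, so the ordering fixed the sign of each difference. In 3 of 9 pairs the groups did not overlap, namely Gsta1 and Gsta4, Gsta4 and Gstm1, and Gstm4 and Gstm6. The gap was narrow for Gsta4 and Gstm1, from -4.47 at the highest in celastrol libraries to -4.46 at the lowest in ANIT libraries. For Gsta1 the celastrol values are close to the floor that the pseudocount sets. Each of these 3 pairs had an exact two-sided permutation p of 0.1, the smallest that 3 against 3 libraries allow, and 0.3 after adjustment over the 9 pairs. No pair could therefore have passed, and the comparison does not decide which neighbours differ. In the other 6 pairs the groups overlapped.

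Within groups, libraries kept a similar order for many of the genes. Celastrol replicate 2 was the highest celastrol library for 8 of the 10 genes, the others being Gstm2 and Gstm5, and ANIT replicate 1 was the lowest ANIT library for 7. On average over the 10 genes, log2(FPKM + 1) was 3.83, 4.71 and 4.01 in celastrol replicates 1, 2 and 3, against 7.05, 7.41 and 7.43 in ANIT replicates 1, 2 and 3. The tested symbols outside the 10 whose log2(FPKM + 1) followed that average most closely were Arhgap18, Mia2, Riok3, Ctnna1, Lims1 and Hmga1, with Pearson r between 0.9981 and 0.9992 over 6 libraries. With the group means taken out of both, they were Tmem60, Axin1, Ces1g, Cabyr, Tlcd2 and Ttr, with r between 0.9954 and 0.9983. These are descriptions over 6 libraries that share the group difference or the order of libraries, picked as the highest of all tested symbols.

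Along the mu cluster, log2 fold changes differed in size between adjacent genes, a difference that was not tested. Gstm5 at the lower end had a log2 fold change of -0.39 and Gstm6 one of -1.15, and between them Gstm7 did not pass. That gene measured 37.85, 38.53 and 37.53 FPKM in celastrol libraries, against 32.87, 36.45 and 34.34 FPKM in ANIT libraries. All of its celastrol values were slightly above its ANIT values, at a log2 fold change of 0.13 (adjusted p = 0.37 by limma), and it passed as higher only after quantile normalization (limma adjusted p = 0.024, with a range of 0.024 to 1 over 14 alternatives). Gstm3, next to Gstm6, had the largest change of the cluster, and Gstm2, Gstm1 and Gstm4 beyond it had log2 fold changes of -2.50, -3.29 and -2.14.

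**Figure D2:**
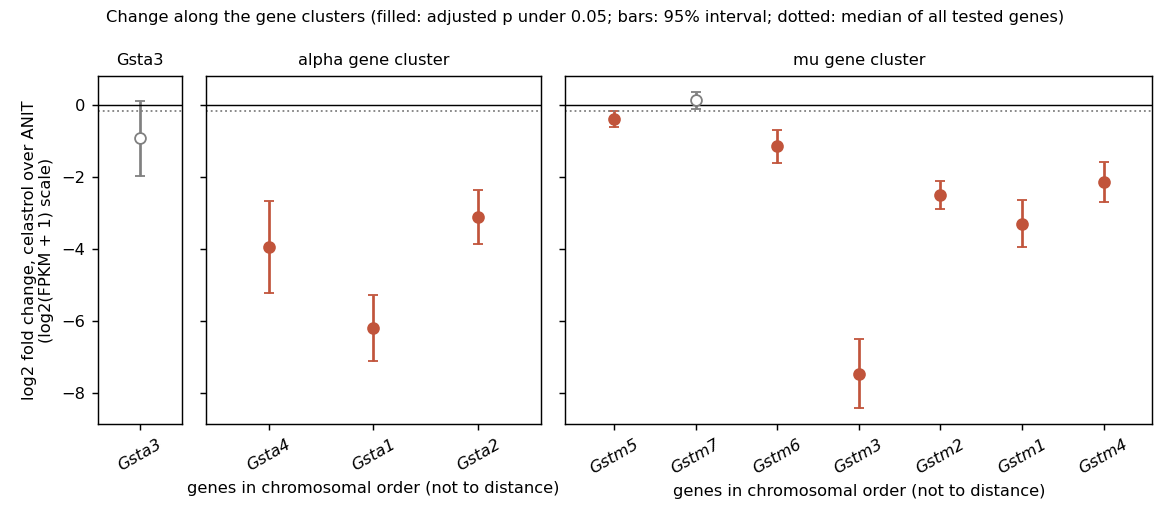
Log2 fold change, celastrol over ANIT, on the log2(FPKM + 1) scale with 95% limma intervals, for Gsta3 and for the genes of the alpha and mu clusters in chromosomal order (spacing not to scale). Gm3776 and Gm10639 of the alpha cluster are not drawn. Filled points passed an adjusted p of 0.05, and the dotted line is the median of all tested symbols, -0.17. Gstm3 is the lowest point at -7.47, and Gstm7 of the same cluster lies at 0.13.

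Sums over each class, which depend less on how counted reads are divided among the summed genes, are given as a description without a test. The alpha sum leaves out Gm3776, and Gstm1 and Gstm3 also share windows with genes outside the mu sum. The 6 mu genes together measured 334.65, 563.59 and 325.44 FPKM in celastrol libraries, against 4067.13, 5357.58 and 5038.77 FPKM in ANIT libraries. The 4 alpha genes measured 187.21, 644.64 and 422.72 FPKM in celastrol libraries, against 725.03, 1086.27 and 1026.88 FPKM in ANIT libraries. Neither sum overlapped between the groups. The mean mu sum was 408 ± 135 FPKM with celastrol and 4821 ± 672 FPKM with ANIT, and the mean alpha sum 418 ± 229 FPKM with celastrol and 946 ± 194 FPKM with ANIT (SD, n = 3 each). Of the mean ANIT sum, 8.46% was left in the mu class and 44.2% in the alpha class. The alpha sum in the celastrol libraries rests mainly on Gsta3 and was highest in celastrol replicate 2, and the log2 ratio of its means was -1.18 with all libraries, -1.63 without that replicate and -0.83 without celastrol replicate 1.

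The make-up of each class sum also differed, again without a test, and the shares below did not overlap between the groups. Gsta3 made up 97.3 ± 1.24% of the alpha sum with celastrol and 73.6 ± 4.20% with ANIT, and Gsta4 2.31 ± 1.17% with celastrol and 14.4 ± 1.46% with ANIT (SD, n = 3 each). In the mu class Gstm3 made up 1.97 ± 0.711% with celastrol and 31.7 ± 4.69% with ANIT, while Gstm1 made up 74.6 ± 4.48% with celastrol and 60.5 ± 5.15% with ANIT (SD, n = 3 each). In every library of both groups most of each class sum was 1 gene, Gsta3 or Gstm1, with a larger share in the celastrol libraries. Gstm5 and Gstm6, among the least changed in level, took a larger share of a smaller sum. Gstm6 held 6.87 ± 0.397% with celastrol and 1.28 ± 0.0416% with ANIT, and Gstm5 2.18 ± 0.634% with celastrol and 0.235 ± 0.0331% with ANIT (SD, n = 3 each).

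**Figure D3:**
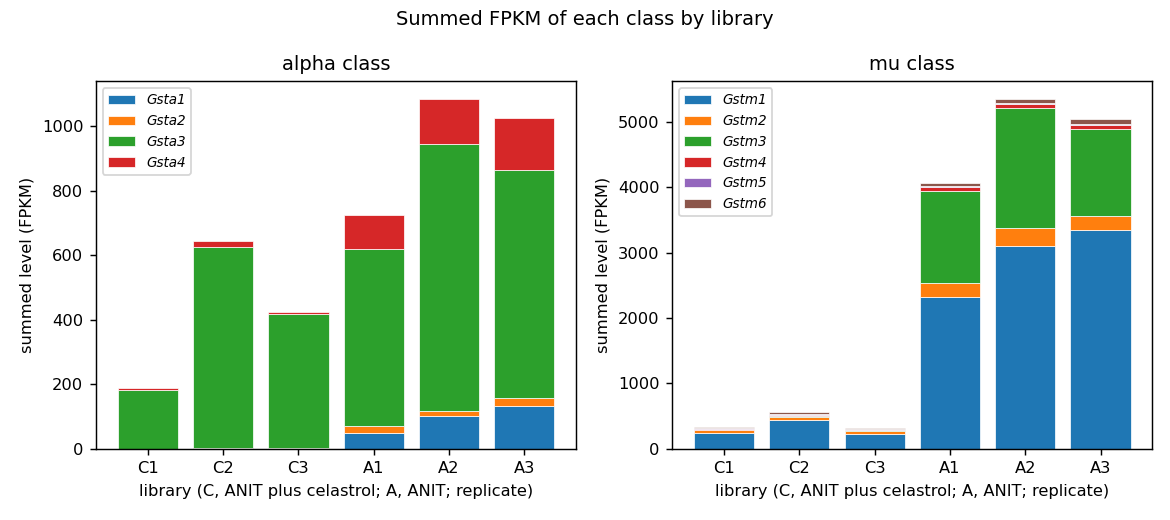
Summed FPKM of the alpha genes (left) and mu genes (right) in each library, with the 3 ANIT plus celastrol libraries (C1 to C3) left of the 3 ANIT libraries (A1 to A3) and colours for genes. The mu sums are 325.44 to 563.59 FPKM in celastrol libraries and 4067.13 to 5357.58 FPKM in ANIT libraries, and most of the alpha sum is Gsta3 in each library.

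Other genes of glutathione metabolism were taken from 5 lists of 73 genes, 57 of which were tested. Of these, 22 were lower, 4 higher and 31 did not pass, with a median log2 fold change of -0.37. Among all tested symbols 20.6% were lower and 4.41% higher, and these shares are the background for the counts of each list below. Of 12 tested other GSTs, 5 were lower and 1 was higher. Gstp1, the main pi-class GST of mouse liver, measured 647.8, 776.86 and 849.71 FPKM in celastrol libraries, against 1272.46, 1372.99 and 1809.88 FPKM in ANIT libraries (log2 fold change -0.96, limma adjusted p = 0.012). Its neighbour and near copy Gstp2 had a log2 fold change of -0.94 (adjusted p = 0.0081 by limma), and the theta-class gene Gstt2 one of -1.94 (adjusted p = 0.0092 by limma). All 3 calls were lost against a fold of 1.5, that of Gstp1 also without celastrol replicate 1 and that of Gstp2 also after quantile normalization, and reads of the Gstp copies may not be separable. Mgst1, a membrane-bound GST of the endoplasmic reticulum and mitochondria, was the gene called higher and is named here after its values were seen. It measured 2263, 2747 and 2041 FPKM in celastrol libraries against 1321, 1555 and 1281 FPKM in ANIT libraries. Its log2 fold change was 0.76 (limma adjusted p = 0.021). It no longer passed after quantile normalization, against a fold of 1.5, or without celastrol replicate 1 or any 1 ANIT library (limma adjusted p over 14 alternatives between 0.0054 and 1). In each celastrol library Mgst1 stood above the sum of the 10 alpha and mu genes, 826 ± 350 FPKM with celastrol and 5767 ± 865 FPKM with ANIT (SD, n = 3 each). Gstz1, an enzyme of tyrosine breakdown, and Gstt1 had a mean above 100 FPKM in at least 1 group and did not pass (limma adjusted p = 0.88 and 0.052). Gstt1 did pass when rescaled to TPM, with the replicate number as a block and without celastrol replicate 2 (limma adjusted p over 14 alternatives between 0.0099 and 1).

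Of 18 tested genes that make, break down and recycle glutathione, 8 were lower and 2 higher, beside 2185 lower and 467 higher among all tested symbols. Gsr, the reductase that restores glutathione from its oxidised form, measured 16.9, 19.18 and 18.92 FPKM in celastrol libraries and 47.76, 45.97 and 45.86 FPKM in ANIT libraries. Its log2 fold change of -1.30 (adjusted p = 0.00049 by limma) was matched by that of Gss, the synthetase of the last step, at -1.30 (limma adjusted p = 0.0011). Both held under each of the 14 alternatives. Chac1, which degrades glutathione, was higher, at 5.22, 6.44 and 6.1 FPKM in celastrol libraries and 1.73, 2.39 and 1.93 FPKM in ANIT libraries (log2 fold change 1.20, limma adjusted p = 0.0011), and this also held under each alternative. Cbs, which feeds homocysteine toward cysteine, exceeded 100 FPKM and did not pass (limma adjusted p = 0.76).

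Among 4 tested glutathione peroxidases, 2 were lower and 0 higher. Gpx4, which reduces lipid hydroperoxides in membranes, had a log2 fold change of -1.17 (adjusted p = 0.0049 by limma), and Gpx7 one of -0.79 (adjusted p = 0.0099 by limma). Both calls were lost against a fold of 1.5. Gpx7, at 0.67, 0.81 and 0.34 FPKM in celastrol libraries, reached the filter only through the ANIT group. The fit without that filter also called Gpx7 lower (limma adjusted p = 0.019). Gpx1, the abundant cytosolic peroxidase, did not pass (log2 fold change -0.53, limma adjusted p = 0.27) except without celastrol replicate 2 (limma adjusted p = 0.0035, with a range of 0.0035 to 1 over 14 alternatives). Its celastrol values of 541.56, 1203.48 and 492.38 FPKM straddled the ANIT values of 911.7, 1067.98 and 990.36 FPKM, with celastrol replicate 2 the highest of all 6 libraries. Of 8 tested genes of conjugate export and mercapturate formation, 2 were lower and 0 higher, near the shares over all tested symbols of 20.6% and 4.41%. Abcc3, a basolateral exporter of conjugates, measured 25.09, 28.25 and 26.48 FPKM in celastrol libraries and 65.76, 58.51 and 70.71 FPKM in ANIT libraries (log2 fold change -1.25, limma adjusted p = 0.00095). Abcc2, the canalicular exporter of conjugates, did not pass (log2 fold change -0.65, limma adjusted p = 0.077), but it did when rescaled to TPM, with the replicate number as a block and without celastrol replicate 2 (limma adjusted p over 14 alternatives between 0.0098 and 1).

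Of 15 tested regulators of GST genes, 5 were lower and 1 higher, beside 20.6% lower and 4.41% higher among all tested symbols. Nr1i2, which encodes the xenobiotic receptor PXR, measured 22.75, 36.47 and 23.37 FPKM in celastrol libraries and 79.78, 77.68 and 74.42 FPKM in ANIT libraries (log2 fold change -1.49, limma adjusted p = 0.0023). Mafg, a small Maf protein that pairs with Nrf2 on DNA, had a log2 fold change of -1.26 (adjusted p = 0.0024 by limma). Nfe2l2, which encodes Nrf2, measured 11.81, 16.57 and 11.82 FPKM in celastrol libraries and 27.44, 26.35 and 24.6 FPKM in ANIT libraries. Its groups did not overlap, with celastrol below as for 36.6% of tested symbols, and the log2 fold change was -0.93 (limma adjusted p = 0.0053). Against a fold of 1.5 the calls of Mafg and Nfe2l2 were lost (limma adjusted p = 0.069 and 0.43), while that of Nr1i2 held. Transcript levels of a regulator do not give its activity, which was not measured. Hnf4a, a hepatocyte factor above 100 FPKM, did not pass (log2 fold change 0.11, limma adjusted p = 0.56), and the sign of that value turned when rescaled to TPM.

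**Figure D4:**
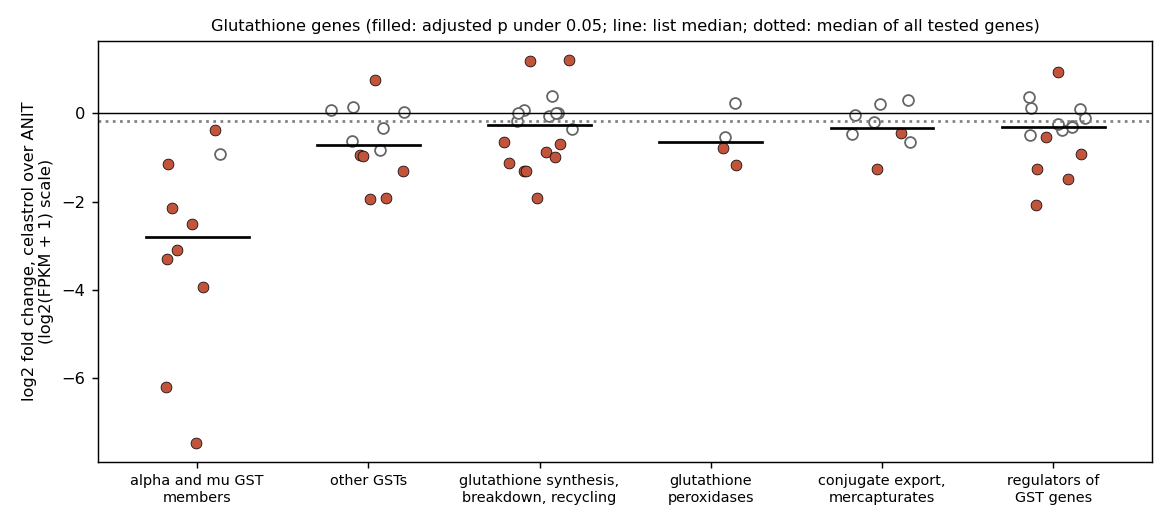
Log2 fold change, celastrol over ANIT, on the log2(FPKM + 1) scale for each tested gene (points), with the 10 alpha and mu GST genes at the left and 5 lists of related genes to the right. Filled points passed an adjusted p of 0.05, black lines are list medians and the dotted line is the median of all tested symbols. The median of the alpha and mu genes is -2.81 and that of the 57 related genes is -0.37.

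Cell type markers were set beside these results, and their part in them was not tested. Over all tested symbols 20.6% were lower and 4.41% higher, which is the background for the marker counts. Of 8 hepatocyte markers 1 was lower, Alb, at 5341, 10051 and 5563 FPKM in celastrol libraries and 29351, 29532 and 38656 FPKM in ANIT libraries. The summed hepatocyte list was 14923 to 21840 FPKM in celastrol libraries and 41553 to 54062 FPKM in ANIT libraries. Without Alb the other 7 markers, none of which passed, summed to 9582 to 12407 FPKM in celastrol libraries and 12021 to 15406 FPKM in ANIT libraries, which overlap. Pericentral hepatocyte markers were higher in 7 of 10 cases and lower in 0, with sums of 2409 to 4062 FPKM in celastrol libraries and 936 to 1330 FPKM in ANIT libraries. Of these 7, Axin2 reached the filter only through the celastrol group, and the call of Oat was lost in the fit without that filter. Periportal markers were lower in 2 of 8 cases and higher in 0, with sums of 2503 to 3829 FPKM in celastrol libraries and 4119 to 4880 FPKM in ANIT libraries. Much of the gap lay in Ass1, at 620 to 1132 FPKM in celastrol libraries and 1655 to 2507 FPKM in ANIT libraries. The list median log2 fold change was -0.016, and 6 of the 8 did not pass. The calls of Ass1 and Hsd17b13 were lost against a fold of 1.5 (limma adjusted p = 0.38 and 0.072). That of Ass1 was also lost without celastrol replicate 1. Cholangiocyte markers were lower in 1 of 4 tested cases, with sums of 21.5 to 50.5 FPKM in celastrol libraries and 44.1 to 51.4 FPKM in ANIT libraries, and the defining marker Cftr was under 0.1 FPKM in every library. The 1 lower marker, Krt19, reached the filter only through the ANIT group. Neutrophil markers were higher in 3 of 5 tested cases, with sums of 62.9 to 86.1 FPKM in celastrol libraries and 29.6 to 54.0 FPKM in ANIT libraries. These 3 calls, of S100a8, S100a9 and Ly6g, were all lost without the filter and against a fold of 1.5. They were also lost without celastrol replicate 1, celastrol replicate 3 or ANIT replicate 3. Sinusoidal endothelial markers were higher in 1 of 6 cases, at sums of 39.8 to 75.7 FPKM in celastrol libraries and 27.5 to 47.0 FPKM in ANIT libraries. Kupffer cell, stellate cell and red cell markers had 0 calls of 15 tested, though the red cell sums of 49.0 to 226 FPKM in celastrol libraries lay below those of 229 to 428 FPKM in ANIT libraries. Fabp2, the 1 tested marker of a small intestine list, was lower, and Vil1 and Lct of that list were under 0.1 FPKM in every library.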

How the data were processed

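Total RNA of frozen mouse liver was sequenced in 3 libraries from ANIT plus celastrol and 3 from ANIT, and titles gave group and replicate number. Per the file headers, the authors deposited FPKM per gene symbol, 1 table per library. HISAT2, featureCounts and mm10 are named, without versions, per the submitters' processing notes. The annotation, strand setting, gene lengths and the step to FPKM were not found (not given in the sources used here), and overlapping or antisense genes and near-identical paralogs are therefore uncertain. No zero is listed, and a symbol not listed was set to 0. Of the symbols, 17576 (96.3%) matched GENCODE M21, and 2 duplicated names were left out.

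The limma package (3.58.1, R 4.3.3) compared log2(FPKM + 1) between groups for symbols that reached 1 FPKM in 3 or more libraries, with trended and robust empirical Bayes variance, no covariate and Benjamini-Hochberg adjustment (two-sided, threshold 0.05). Differences on this scale understate changes where levels are about 1 FPKM or less. Means ± SD are of FPKM. The steps between low FPKM values gave the estimated depth, at which 1 FPKM over 1 kilobase is 18.9 to 19.8 reads. No counts were rebuilt. No 2 libraries shared more than 0.698% of identical values above 1 FPKM. The fit was tested on simulated data.

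The genes and lists were chosen with earlier results of these data known. Named genes are the 10 GST genes, the 3 genes of smallest p in each list of related genes, genes of those lists at or above 100 FPKM that did not pass, and the 6 genes most like the family by 2 measures. Of the genes this rule names, 1 is not reported here. Gm3776, Gm10639, Gstm7 and Mgst1 were singled out after their values were seen. The 14 alternatives were a pseudocount of 0.1, no filter, the replicate number as a block, median-ratio scaling, quantile normalization, rescaling to TPM, a test against a fold of 1.5, non-robust variance, and leaving out each of the 6 libraries. Promoter sequences are from RefSeq on GRCm38.p6, and transcript and coding sequences from GENCODE M21.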

Additional observations from a re-analysis of the deposited data

How the results depend on the processing

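No alternative turned the direction of any of the 10 genes. Gsta2, Gsta4, Gstm1, Gstm2, Gstm3 and Gstm4 passed under each of 14 alternatives, and Gsta1 under each of the 11 that left it testable, since leaving out 1 ANIT library put it below the filter. The count of the 10 genes called lower lay between 7 and 10 and the count called higher was 0 throughout. Symbols lower with celastrol numbered 2185 as reported, 1163 under median-ratio scaling, 952 after quantile normalization, 3781 when rescaled to TPM, 162 against a fold of 1.5, and 911 (without ANIT replicate 2) to 3334 (without celastrol replicate 2) with 1 library left out. Symbols higher numbered 467 as reported, 800 under median-ratio scaling, 873 after quantile normalization, 47 against a fold of 1.5, and 196 (without celastrol replicate 1) to 476 (without celastrol replicate 2) with 1 library left out. Of the 57 related genes, 4 were lower and 1 higher against a fold of 1.5, and 2 to 5 were higher with 1 library left out, the count being 2 without celastrol replicate 1, ANIT replicate 2 or ANIT replicate 3. The cause of these shifts was not tested. Not every same-numbered pair of libraries deviated together (correlations of 0.149, 0.231 and -0.0917 over genes), so the numbers were not taken as pairs. With the replicate block 2106 symbols were lower and 479 higher, and the same 9 of the 10 genes were lower. Celastrol replicates 1 and 2 correlated best with their own number and celastrol replicate 3 with ANIT replicate 1. Values well below 1 FPKM rest on few reads.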
